A study of Mus musculus with 11 samples.

Results

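Oviduct-TBP clones, organoids from the mouse oviduct that carry guide-induced mutations in tumor suppressor genes, were compared over all genes with unedited oviductal organoids of the same Cas9 background. The comparison uses 6 of the 27 libraries of the series, 3 of TBP clones and 3 of Cas9-GFP organoids, chosen by their labels. Both groups come from mice with a Cas9-P2A-EGFP cassette in the Rosa26 locus, so that Cas9 and GFP were present in clones and controls alike. The clones were made by transfection with single guide RNAs, among whose targets were Trp53 and Brca1, followed by Nutlin-3a, which kills cells with intact p53, and by expansion of single picked organoids. The Cas9-GFP organoids received no guide RNAs. The clones thus differ from their controls in genotype, in drug selection, in descent from a single organoid and in passage, and these cannot be told apart here. By the study's account the Brca1 mutations of such clones are heterozygous, and a pair of independent clones is described for each combination of mutations. The 3 libraries are called clones 1 to 3 here after their labels, and may not be 3 distinct clones. The labels place all 3 clone libraries under a single record, so the p-values measure the spread between these libraries, whatever their origin. For orientation, 3 libraries of oviductal organoids from C57BL/6 mice without Cas9 were also examined.

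The Cas9-GFP libraries held 1038141, 600579 and 980992 counts. Clones 2 and 3 held 2052696 and 4531767 counts, but clone 1 held 82239, of which 1 read already stands for 12.1 CPM, the counts scaled to library size with TMM factors. A count of 0 was read as allowing up to 3 counts, which is 36.2 CPM in clone 1, 1.54 CPM in clone 2 and 0.647 CPM in clone 3. Mitochondrial RNA, mainly ribosomal, made up 2.29% of the reads of clone 1 against 8.28 to 13.4% in the other 5 libraries. Fold changes, calls and gene lists were therefore also computed without clone 1.

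The fallopian tube, whose counterpart in the mouse is the oviduct, is lined by secretory cells and ciliated cells, and its secretory cells are regarded as a source of high-grade serous ovarian cancer. Many of these tumors lack homologous recombination. The p53 protein is a transcription factor that, after DNA damage, raises genes for cell cycle arrest and apoptosis. BRCA1 takes part in the repair of double-strand breaks by homologous recombination.

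Trp53 was lower in the clones. It had 50.3, 33.8 and 59.1 CPM in the Cas9-GFP libraries and 0, 0.513 and 4.75 CPM in clones 1, 2 and 3. The highest clone lay below the lowest control, although the 0 of clone 1 allows more than that control holds. The log2 fold change was -3.97 (SE 0.63, edgeR adjusted p = 0.0150), and without clone 1 it was -3.94 (SE 0.62, edgeR adjusted p = 0.0432). The gene lies at chr11:69580348-69591873 of GRCm38. CEL-Seq2 reads the 3′ end of transcripts, so that the edited bases themselves are not seen by this assay. Brca1 had at most 4 reads in a Cas9-GFP library and 0, 1.03 and 5.18 CPM in clones 1, 2 and 3, and it did not pass the filter on low counts.

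With all 6 libraries, 30 of 7708 genes tested were higher in the clones (0.389%) and 33 were lower (0.428%) at an edgeR adjusted p under 0.05, which makes 63 or 0.817% in all. Without clone 1 the counts were 28 higher (0.339% of 8267 genes tested) and 35 lower (0.423%), or 0.762% in all, and 44 genes, 19 higher and 25 lower, were called both ways. At an unadjusted p under 0.05 there were 392 higher (5.09%) and 375 lower genes (4.87%) with all libraries, and 616 (7.45%) and 562 (6.8%) without clone 1. DESeq2 called 53 genes higher and 48 lower (1.31% in all), among them 57 of the 63. In bulk libraries fewer cells of a type and less RNA per cell cannot be told apart. In all 30 of the higher genes and in 32 of the 33 lower ones the values of the clones did not overlap those of the controls. The exception was Pifo, a gene of the primary and motile cilium, in which a single read put clone 1 among the controls. Over all genes tested, 7.28% had every clone above every control and 11% had every clone below. Genes were called from these same values, so their separation adds no support to the calls. A 0 in clone 1, found for 22.8% of the genes tested, was counted as below although it allows up to 36.2 CPM. The smallest change among the 63 genes was that of Ccng2, at a log2 fold change of 1.62.

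**Figure D1:**
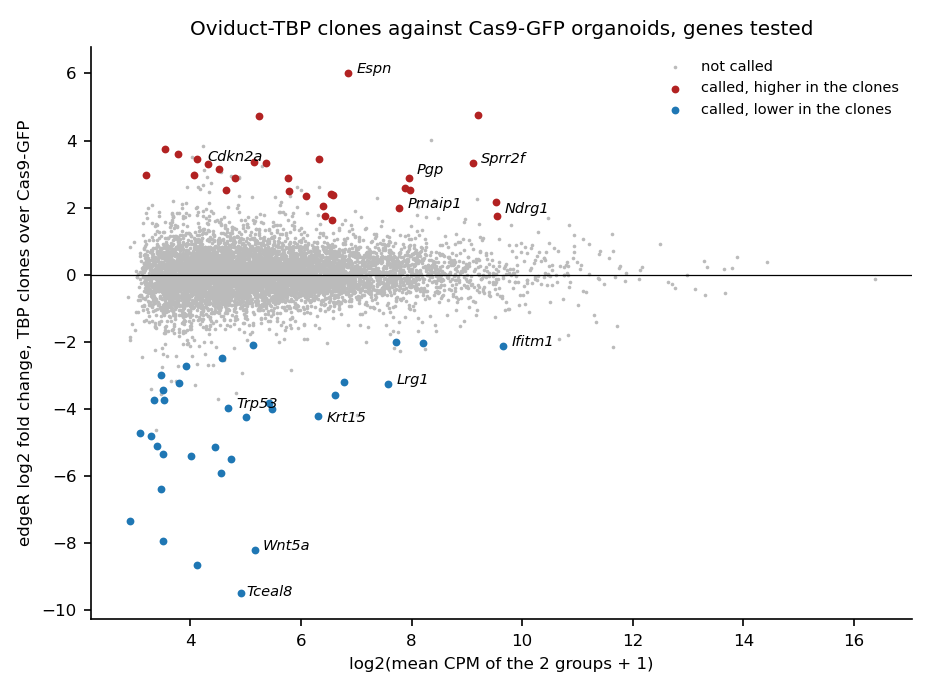
Each point is a gene tested, with the log2 of the mean CPM of both groups plus 1 on the x axis and the edgeR log2 fold change of TBP clones over Cas9-GFP organoids on the y axis. The 30 genes called higher are red and the 33 called lower are blue, and fitted values of genes without a read in the clones, such as Tceal8, depend on the fit's prior count.

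The deepest losses were of genes with hardly a read in any clone. Tceal8, of the transcription elongation factor A-like family, had 57.6, 65.9 and 50.8 CPM in the Cas9-GFP libraries, or 151 reads, and not 1 read in the 3 clones. It was at least 127-fold lower, taking 3 counts over the clones together as the floor (edgeR adjusted p = 0.00104). Prrg3, a transmembrane Gla protein, had 30.2, 38.9 and 29.0 CPM in the controls and no read in the clones, which is at least 70.4-fold lower (edgeR adjusted p = 0.00439). Both groups were far apart for these genes, and both calls held in each of 6 fits that left out 1 library.

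Wnt5a, a ligand of the β-catenin-independent Wnt branch, had 95.1, 50.7 and 62.2 CPM in the controls. The clones held 1 read between them, in clone 2. The ratio of the pooled counts was 488 (95% exact interval 86.6 to 19372, counting error alone), with an edgeR adjusted p of 0.000981. Wnt5a too kept its call in each of 6 fits that left out 1 library. Sox3, a SoxB1 transcription factor of stem and progenitor cells, had 12.8, 35.5 and 13.5 CPM in the controls and no read in the clones, at least 40.2-fold lower (edgeR adjusted p = 0.0134). Prkcdbp, which encodes a caveolar coat protein, had 11.9, 13.5 and 13.5 CPM against no read, at least 28.5-fold lower (edgeR adjusted p = 0.0123). Nr0b1, an orphan nuclear receptor also known as Dax1, had 51.2, 22.0 and 60.1 CPM in the controls against 0, 2.05 and 0 CPM in clones 1 to 3. For Prrg3, Sox3, Prkcdbp and Nr0b1 the 0 of clone 1 carries little weight, since at least 1 control value of each lies under its floor of 36.2 CPM.

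Tceal8, Prrg3, Sox3 and Nr0b1 are X-linked. They are 4 of the 33 lower genes, while 3.14% of the genes tested lie on the X chromosome. They do not neighbour each other: on GRCm38 Sox3 begins at 60891366, Prrg3 at 71962164, Nr0b1 at 86191775 and Tceal8 at 136168984. In C57BL/6 organoids Tceal8 had 181, 104 and 117 CPM and Sox3 153, 51.0 and 45.4 CPM, above the Cas9-GFP organoids for every library. In contrast, Nr0b1 had 0, 0 and 0.614 CPM and Prrg3 had 2.63, 8.77 and 3.07 CPM there. Thus Tceal8 and Sox3 were present in both kinds of unedited organoids, whereas Nr0b1 and Prrg3 had few or no reads in the C57BL/6 ones.

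The sequences just upstream of 2 X-linked genes without a read in the clones are shown because they carry very different numbers of CpG dinucleotides, in capitals. Both are the 250 bases before a RefSeq transcription start on GRCm38.p6, read 5′ to 3′ along the strand of the gene: Tceal8 at chrX:136172252-136172501 on the minus strand and Prrg3 at chrX:71962375-71962624 on the plus strand. Prrg3 has 2 starts in the RefSeq promoter table, and the first was used. Its window lies within the annotated extent of the gene, downstream of the position at which the gene begins.
Tceal8: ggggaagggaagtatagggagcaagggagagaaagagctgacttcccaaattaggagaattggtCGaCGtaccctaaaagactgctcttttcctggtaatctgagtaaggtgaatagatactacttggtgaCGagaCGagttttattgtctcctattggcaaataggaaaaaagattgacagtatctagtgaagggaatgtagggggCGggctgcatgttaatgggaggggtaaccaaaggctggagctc
Prrg3: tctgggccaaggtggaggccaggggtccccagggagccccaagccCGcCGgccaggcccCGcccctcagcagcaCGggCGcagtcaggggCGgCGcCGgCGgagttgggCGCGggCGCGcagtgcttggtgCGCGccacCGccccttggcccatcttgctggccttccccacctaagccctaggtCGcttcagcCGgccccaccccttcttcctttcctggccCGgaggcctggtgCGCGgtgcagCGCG
Tceal8 has 5 CpG and Prrg3 has 23. The median was 17 CpG over the 5860 genes tested that had an entry in the RefSeq promoter table, 9 over 19 of the genes lower in the clones and 6 over 18 of the genes higher. The middle ranges (quartiles) overlapped, at 11 to 24 CpG for the genes tested, 4.5 to 12.5 for the lower and 3.5 to 20.25 for the higher genes, and the difference was not tested.

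Further genes were lower in the clones at levels that could be read in most libraries. Krt15, a keratin of basal epithelial cells, had 112, 211 and 75.6 CPM in the controls and 60.3, 9.23 and 1.73 CPM in clones 1, 2 and 3. All clones were below the controls, clone 1 by little (log2 fold change -4.20, SE 0.87, edgeR adjusted p = 0.0457). DESeq2 did not call Krt15 (log2 fold change -2.80, DESeq2 adjusted p = 0.562). Lrg1, a secreted leucine-rich glycoprotein of the acute phase, had 320.0, 553 and 174 CPM in the controls and 12.1, 55.9 and 23.5 CPM in the clones (log2 fold change -3.27, SE 0.53, edgeR adjusted p = 0.0159). Cpq, a secreted carboxypeptidase, had 188, 237 and 107 CPM against 24.1, 5.13 and 21.6 CPM (log2 fold change -3.58, SE 0.55). In both genes the groups were well apart, and 4 of the 6 fits that left out 1 library still called them. Ifitm1, an interferon-induced transmembrane protein and the most abundant of the lower genes called both ways, had 1301, 1080.1 and 1525 CPM in the controls and 362, 391 and 161 CPM in the clones (log2 fold change -2.12, SE 0.41, edgeR adjusted p = 0.0322). The range of the clones overlapped that of C57BL/6 organoids, which had 214, 354 and 191 CPM. It did so too for Krt15, with 21.1, 5.58 and 6.14 CPM in C57BL/6 organoids, and for Lrg1, with 14.5, 76.5 and 52.2 CPM. Cpq had 167, 236 and 260 CPM there, above every clone.

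Cxcl17, a chemokine of mucosal surfaces, fell from 294, 294 and 441 CPM to 48.2, 71.8 and 113 CPM. Isyna1, the enzyme that makes inositol phosphate from glucose 6-phosphate, fell from 411, 488 and 538 CPM to 72.4, 150 and 106 CPM. Both had log2 fold changes near -2 (-2.02 and -2.04, SE 0.37 and 0.35). Olfml3, a secreted matrix glycoprotein, fell from 86.9, 89.6 and 51.8 CPM to 12.1, 6.15 and 4.32 CPM, and was called in 5 of the 6 fits that left out 1 library. Also lower, and called with and without clone 1, were Tshr, the thyrotropin receptor (log2 fold change -2.49, SE 0.50), Naprt1 of NAD synthesis (-2.72, SE 0.51), Syt6, a synaptotagmin (-5.41, SE 0.75), and Aox3, an aldehyde oxidase (-5.50, SE 0.85).

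Among the genes higher in the clones, Espn had the largest change. It encodes an actin-bundling protein of microvilli and stereocilia, and it had 2.74, 5.07 and 1.04 CPM in the Cas9-GFP libraries against 531, 118 and 30.9 CPM in clones 1, 2 and 3. The log2 fold change was 6.01 (SE 1.06, edgeR adjusted p = 0.0253), and 4.72 (SE 0.73, edgeR adjusted p = 0.0432) without the shallow clone 1, where it was highest. Cdh17, the liver-intestine cadherin, had 4.57, 3.38 and 2.07 CPM in the controls and 36.2, 39.5 and 27.8 CPM in the clones (log2 fold change 3.29, SE 0.53, edgeR adjusted p = 0.0155). Its value in clone 1 is 3 reads.

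Cdkn2a, which encodes the inhibitor p16Ink4a and, from another reading frame, the p53 activator p19Arf, had 5.49, 3.38 and 5.18 CPM in the controls and 24.1, 38.5 and 54.0 CPM in the clones. Its groups did not overlap, in clone 1 on the strength of 2 reads (log2 fold change 3.15, SE 0.49, edgeR adjusted p = 0.0134). The counts do not separate both transcripts. C57BL/6 organoids had 95.6, 104 and 128 CPM, so that the clones stood between the unedited lines. Against C57BL/6 organoids the log2 fold change of the clones was -1.41 (edgeR adjusted p = 0.0192), in the opposite direction.

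Pmaip1, the p53 target that encodes the pro-apoptotic protein Noxa, was higher in the clones although Trp53 was lower. It had 72.2, 87.9 and 104 CPM in the controls and 326, 391 and 327 CPM in the clones, whose spread was narrow (log2 fold change 1.99, SE 0.32, edgeR adjusted p = 0.0150). C57BL/6 organoids had 21.5, 51.0 and 61.4 CPM. Nol3, an inhibitor of apoptosis also known as ARC, was higher too, with 6.40, 3.38 and 5.18 CPM against 84.4, 29.7 and 33.7 CPM (log2 fold change 2.87, SE 0.55).

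Several of the higher genes encode enzymes. Aldh3a1, an aldehyde dehydrogenase, had 0.914, 13.5 and 11.4 CPM in the controls and 36.2, 86.6 and 91.9 CPM in the clones (log2 fold change 3.32, SE 0.61, edgeR adjusted p = 0.0278). Gstt1, a glutathione S-transferase, had 9.14, 5.07 and 6.22 CPM against 24.1, 33.8 and 130 CPM (log2 fold change 3.36, SE 0.62, edgeR adjusted p = 0.0283). Pgp, the phosphatase that removes phosphoglycolate, had 53.9, 50.7 and 59.1 CPM against 832, 201 and 280 CPM (log2 fold change 2.89, SE 0.50, edgeR adjusted p = 0.0233). Clone 3 was highest for Gstt1 and the shallow clone 1 for Pgp, but each clone exceeded the controls for all of these genes. In clone 1 this rests on 2 reads for Gstt1 and 3 reads for Aldh3a1. C57BL/6 organoids had 33.8, 47.0 and 89.0 CPM of Gstt1, within the range of the clones. For Aldh3a1 and Pgp they lay below every clone.

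Nupr1, a stress-induced nuclear protein, had 16.5, 13.5 and 11.4 CPM in the controls and 157, 76.9 and 48.3 CPM in the clones. Dusp1, a phosphatase that switches off MAP kinases, had 10.1, 8.45 and 5.18 CPM against 24.1, 34.9 and 62.2 CPM, and Dusp4 of the same family 1.83, 1.69 and 2.07 CPM against 12.1, 16.9 and 14.2 CPM. Dusp4 was not called by DESeq2 (DESeq2 adjusted p = 0.132) or by edgeR without clone 1 (edgeR adjusted p = 0.0624). In clone 1 the value is 2 reads for Dusp1 and 1 read for Dusp4. S100a14, a calcium-binding protein of epithelia, had 34.7, 25.4 and 28.0 CPM against 181, 106 and 190 CPM (log2 fold change 2.39, SE 0.36, edgeR adjusted p = 0.0134). Kdelr3, a receptor that returns proteins to the endoplasmic reticulum, and Myh7b, a myosin heavy chain, had log2 fold changes of 3.59 (SE 0.59) and 2.99 (SE 0.59). Clone 1 held 2 reads of Kdelr3 and 1 read of Myh7b. Gm6225, a predicted gene, stood out by its narrow spread, with 12.8, 13.5 and 13.5 CPM against 72.4, 85.1 and 122 CPM (log2 fold change 2.88, SE 0.38, edgeR adjusted p = 0.00839). Wfdc18, a secreted protein with a whey acidic protein domain, had 4.57, 5.07 and 0 CPM in the controls and 24.1, 30.8 and 156 CPM in the clones, far below the 1146, 1139 and 1326 CPM of C57BL/6 organoids. The Wfdc18 value of clone 1 is 2 reads.

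**Figure D2:**
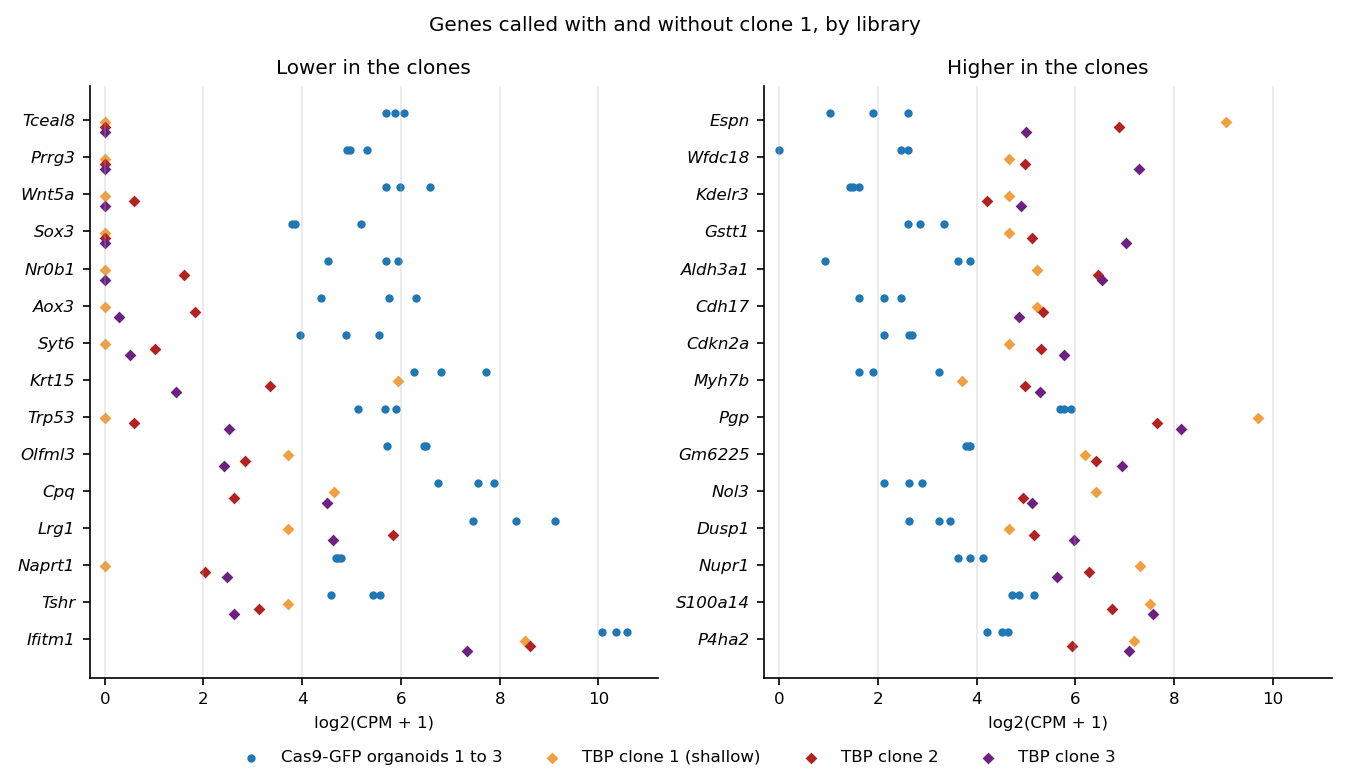
Log2 of CPM plus 1 in each library for the 15 genes with the largest change in each direction among those called with and without clone 1, with at least 20 CPM in the higher group and no overlap between groups. Blue circles are the 3 Cas9-GFP libraries and diamonds the 3 clones, and Tceal8, Prrg3 and Sox3 lie at 0 in every clone.

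The C57BL/6 organoids differed from the Cas9-GFP organoids in many of these genes. With C57BL/6 organoids as the reference, 25 of the 30 higher genes kept their direction, as did 27 of the 29 lower genes that could be tested. These counts take direction alone. Krt15 (log2 fold change -0.53, edgeR adjusted p = 0.782) and Lrg1 (-0.48, edgeR adjusted p = 0.645) kept it without passing the threshold. So did Gstt1 (0.29, edgeR adjusted p = 0.782), whereas Tceal8 and Wnt5a passed the threshold with this reference too. In 5 of the 30 higher genes the mean of the C57BL/6 libraries exceeded that of the clones, and in 5 of the 33 lower genes it lay below. The genes whose direction turned were Cdkn2a, Dusp1, Kdelr3, Nupr1 and Wfdc18 among the higher and Ifitm1 and Unc5cl among the lower. Unc5cl, a death-domain protein that activates NF-κB, had 118, 394 and 73.6 CPM in the Cas9-GFP libraries, 24.1, 22.6 and 18.99 CPM in the clones and 8.33, 5.58 and 13.5 CPM in C57BL/6 organoids.

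To see whether whole pathways moved, 29 gene lists were examined by counts of called members and by their median log2 fold change, beside a median of -0.01 over all genes tested. Of these lists, 16 had a called member and 13 had none, and 18 of the 63 called genes belonged to a list. The lists together hold 570 of the 7708 genes tested, and they were chosen with earlier results of these data known.

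Of 25 p53 target genes tested, Pmaip1 was called higher and none was called lower, and the median log2 fold change was -0.39. At an unadjusted p under 0.05, 3 were lower (4.87% of all genes tested). Without clone 1, 5 of 27 were lower at that level (6.8% of all genes tested), with a median of -0.29. Of the 27, 8 had both clones below every control (15.8% of all genes tested). Cdkn1a, the main effector of p53 in cell cycle arrest, had 436, 409 and 667 CPM in the controls and 663, 485 and 916 CPM in the clones, an overlapping range (log2 fold change 0.45, SE 0.36, edgeR adjusted p = 0.737). Mdm2, the ubiquitin ligase that degrades p53, had 68.6, 45.6 and 95.3 CPM against 60.3, 45.6 and 48.3 CPM (log2 fold change -0.53, SE 0.37, edgeR adjusted p = 0.700). Zmat3 had 28.3, 20.3 and 47.7 CPM in the controls against 0, 4.61 and 14.5 CPM in the clones (edgeR adjusted p = 0.259). Clones 2 and 3 were below every control, while the 0 of clone 1 allows up to 36.2 CPM. Ccng1, at 80.5, 74.4 and 147 CPM in the controls, had 96.5 CPM in clone 1 and 19.5 and 36.5 CPM in clones 2 and 3 (edgeR adjusted p = 0.292). Neither passed the test.

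Of 13 FOXO target genes tested, Ccng2, an unconventional cyclin tied to growth arrest, was called higher, from 47.5, 52.4 and 34.2 CPM to 169, 135 and 121 CPM, and the median was 0.35. Kinases, regulators and inhibitors of the PI3K, AKT and mTOR pathway had no called member of 20 tested and a median of -0.13. Genes of homologous recombination and the damage response likewise had none of 14 tested, with a median of 0.51, and the apoptosis list had Pmaip1 of 20 tested, with a median of 0.01. Without clone 1 the medians of these lists were 0.24 for FOXO targets, -0.07 for the PI3K pathway, 0.25 for recombination and damage and 0.05 for apoptosis. In the cell cycle and replication list 40 of 44 genes tested had positive fold changes, but Cdkn2a alone was called. The median was 0.63, beside -0.01 over all genes tested. The list summed to 2636, 1520 and 2411 CPM in the controls, lowest in Cas9-GFP library 2. In clones 1, 2 and 3 the sums were 3823, 2519 and 4224 CPM, clone 2 within the range of the controls. The part of Cas9-GFP library 2 in this was not tested. The median log2 ratio of this list to the controls was 0.69 in clone 1, 0.09 in clone 2 and 0.83 in clone 3, so that clone 2 lay close to the controls.

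Most genes of the hypoxia response stood above the controls in every clone. Cells short of oxygen stabilise hypoxia-inducible factors, which raise genes for glycolysis, angiogenesis and collagen modification. Of 13 response genes tested, Ndrg1 and P4ha2 were called higher, 9 were higher at an unadjusted p under 0.05 (5.09% of all genes tested), and in 10 every clone lay above every control (7.28% of all genes tested). The median log2 fold change of the 13 was 1.27, and the clones were alike, with median log2 ratios of 0.92, 0.96 and 0.97 in clones 1, 2 and 3. Without clone 1 the median was 1.13, with 8 of 13 at an unadjusted p under 0.05 (7.45% of all genes tested then). Cas9-GFP library 3 was the lowest of all 6 in 11 of the 13 genes, against 9.07% of all genes tested, and without it the median was 0.78, with 4 of 13 at an unadjusted p under 0.05 (3.28% of all genes tested then). The part of this library in the result was otherwise not tested.

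Ndrg1, a stress- and differentiation-related gene, had 348, 396 and 281 CPM in the controls and 1206, 960.3 and 1257 CPM in the clones (log2 fold change 1.74, SE 0.33, edgeR adjusted p = 0.0322). P4ha2, a subunit of the prolyl hydroxylase that matures collagen, had 23.8, 22.0 and 17.6 CPM against 145, 60.0 and 135 CPM (log2 fold change 2.34, SE 0.42, edgeR adjusted p = 0.0266). Both genes were called with and without clone 1. Vegfa, the angiogenic growth factor, had 524, 646 and 219 CPM against 1894, 785 and 1260 CPM (log2 fold change 1.49, SE 0.46, edgeR adjusted p = 0.230). Ero1l, an oxidase of disulfide formation, had 1055, 1312 and 534 CPM against 3401, 2798 and 1899 CPM (log2 fold change 1.48, SE 0.42, edgeR adjusted p = 0.180). In both, all clones exceeded the controls without passing the test.

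The 17 glycolysis genes tested had no call and a median log2 fold change of 0.41. At an unadjusted p under 0.05, 2 were higher (5.09% of all genes tested). Pkm, pyruvate kinase, had 9082, 8763 and 6310 CPM in the controls and 5681, 10035 and 8469 CPM in the clones, with overlap. Oxygen was not varied in the design.

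The upstream sequence of P4ha2 is shown with the core letters of the hypoxia response element in capitals. It covers the 250 bases before the RefSeq start, chr11:54100674-54100923 of GRCm38.p6 on the plus strand, and was searched for ACGTG and GCGTG on both strands.
P4ha2: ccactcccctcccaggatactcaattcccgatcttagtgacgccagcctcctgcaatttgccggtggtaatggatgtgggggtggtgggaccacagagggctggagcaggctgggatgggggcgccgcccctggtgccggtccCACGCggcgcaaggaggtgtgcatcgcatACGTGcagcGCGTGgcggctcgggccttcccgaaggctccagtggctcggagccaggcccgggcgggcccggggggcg
The window holds 3 matches. At least 1 match was found upstream of 8 of 10 hypoxia response genes with an entry, 12 of 17 glycolysis genes and 60.3% of the 5860 genes tested with an entry. A match to these short letters is a description and not a binding site.

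**Figure D3:**
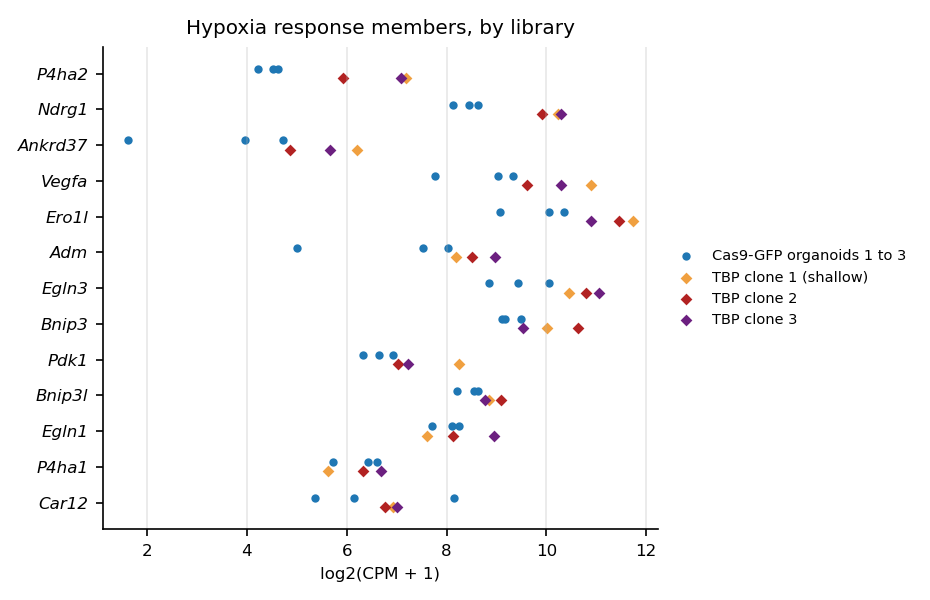
Log2 of CPM plus 1 in each library for the 13 hypoxia response genes tested, ordered by fold change. Blue circles are the 3 Cas9-GFP libraries and diamonds the 3 clones, and in 10 of the 13 genes all clones lie to the right of all controls.

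Of the cholesterol and lipid synthesis genes, 9 of 29 tested were higher at an unadjusted p under 0.05 (5.09% of all genes tested). None was lower at that level, none was called, and the median log2 fold change was 0.56. Sc4mol, a sterol methyl oxidase, had 178, 193 and 213 CPM in the controls and 446, 349 and 441 CPM in the clones (edgeR adjusted p = 0.184). Acss2, acetyl-CoA synthetase, had 10.1, 16.9 and 8.29 CPM against 12.1, 32.8 and 68.2 CPM (edgeR adjusted p = 0.126). Without clone 1, in 17 of 30 genes both clones lay above every control, against 15.5% of all genes tested. The NRF2 and glutathione list had Aldh3a1 and Gstt1 called of 26 tested, around a median of 0.00. In it 4 members were lower at an unadjusted p under 0.05 (4.87% of all genes tested). Nuclear genes of oxidative phosphorylation had no call of 54 tested and a median of 0.06. Ribosomal proteins, taken as symbols of Rpl or Rps with a number, had none of 69 and 0.09. A ribosomal protein gene outside this naming was lower, called without clone 1 (edgeR adjusted p = 0.0432) but not with all libraries (edgeR adjusted p = 0.0529). Without clone 1 the medians were 0.24 for NRF2 and glutathione, -0.08 for oxidative phosphorylation and -0.06 for ribosomal proteins, the last 2 of opposite sign.

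Epithelial genes were present in all clones, while most genes of the secretory and Müllerian list had negative fold changes. Pax8, a transcription factor of the Müllerian duct, had 149, 137 and 175 CPM in the controls and 302, 111 and 132 CPM in the clones (log2 fold change 0.07, SE 0.39). Epcam had 391, 516 and 467 CPM against 470.4, 558 and 460.4 CPM, and Krt7 1204, 1391 and 1684 CPM against 712, 1312 and 1478 CPM. Of 17 genes of the secretory and Müllerian list tested, none was called and the median was -0.27. Without clone 1 the median was -0.46, 5 were lower at an unadjusted p under 0.05 (6.8% of all genes tested) and 7 had both clones below every control (15.8% of all genes tested). With all libraries, 4 were lower and 0 higher at an unadjusted p under 0.05 (4.87% and 5.09% of all genes tested). Among the 4 was Pgr, the progesterone receptor, at 235, 414 and 89.1 CPM in the controls and 0, 30.8 and 0.432 CPM in the clones, without overlap (log2 fold change -4.18, SE 1.02, edgeR adjusted p = 0.0943). The others were Wt1 with 235, 164 and 173 CPM against 109, 42.0 and 76.8 CPM (edgeR adjusted p = 0.112), Foxa2 (edgeR adjusted p = 0.199) and Ltf, lactotransferrin (edgeR adjusted p = 0.355). Ovgp1, the oviductal glycoprotein, was low in both groups, at 75.0, 93.0 and 64.2 CPM in the controls and 0, 66.1 and 47.7 CPM in the clones, whereas C57BL/6 organoids had 13691 to 21102 CPM.

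Genes of the motile cilium were close to the limit of detection. Of 75 matched to the table, 8 were tested, Pifo was called lower and the median log2 fold change was -1.10. Without clone 1 the median was -0.75 over 11 genes, and DESeq2 did not call Pifo (DESeq2 adjusted p = 0.0741). Foxj1, the master regulator of ciliated cells, had 14.6, 1.69 and 33.2 CPM in the controls and 0, 6.15 and 0 CPM in the clones and did not pass the filter. The summed level of 12 ciliated cell markers was 11.8 to 90.1 CPM in the controls and 0 to 25.1 CPM in the clones. Its part in the results was not tested. The 8 secretory cell markers summed to 1976 to 2451 CPM in the controls and 1797 to 1927 CPM in the clones. These sums did not overlap, but of 6 markers tested 0 had every clone below every control (11% of all genes tested). With clone 1 left out, both clones lay below every control in 2 of the 6 (15.8% of all genes tested). Markers of the ovarian surface or mesothelium summed to 771 to 943 CPM in the controls and 362, 738 and 852 CPM in clones 1 to 3. Smooth muscle markers summed to 35.5 to 84.1 CPM in the controls and 24.1 to 121 CPM in the clones, myeloid markers to 26.9 to 43.9 CPM and 20.9 to 36.9 CPM, and granulosa or steroidogenic cell markers to 18.6 to 33.8 CPM and 3.88 to 40.5 CPM, all overlapping. Fibroblast, endothelial, lymphocyte and erythroid markers summed to at most 24.1 CPM in every library, which in clone 1 is 2 reads. The part of these cell types in the results was not tested.

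Of 17 secreted defence proteins tested, Cxcl17 was called lower and Wfdc18 called higher. At an unadjusted p under 0.05, 6 were lower against 1 higher (4.87% and 5.09% of all genes tested). Without clone 1, 7 of 18 were lower and 1 higher at that level (6.8% and 7.45% of all genes tested). In 10 both clones lay below every control (15.8% of all genes tested). The median log2 fold change was -0.95, and the median log2 ratio to the controls was -0.23 in clone 1, -0.37 in clone 2 and -1.60 in clone 3. C3, the central complement component, had 3905, 8113 and 3640 CPM in the controls and 759.9, 2274 and 466 CPM in the clones (log2 fold change -2.15, SE 0.58, edgeR adjusted p = 0.147). Sftpd, surfactant protein D, had 723, 632 and 1054 CPM against 289, 421 and 320 CPM (edgeR adjusted p = 0.184). The interferon response list had no call of 18 tested, with a median of 0.15, and antigen presentation none of 9, with a median of 0.32 (0.13 without clone 1).

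Of the signaling lists, the Wnt pathway had Wnt5a called lower of 13 tested (median -0.25, and -0.84 over 16 genes without clone 1). Of 14 genes of the TGF-β and BMP list tested, 1 was called lower and 1 higher (median -0.20). The lower was Bmp7, a ligand, with 31.1, 10.1 and 18.6 CPM in the controls against 0, 2.56 and 0.863 CPM in the clones, and without clone 1 it did not pass the threshold, at an edgeR adjusted p of 0.0624. C57BL/6 organoids had 5.26, 1.59 and 0.614 CPM of Bmp7, overlapping the clones. The matrix, integrin and protease list (25 tested, median 0.43) and the epithelial-mesenchymal transition list (6 tested, median -0.11) had 1 gene called higher each. In the EGF and MAPK list Dusp4 was called of 14 tested (median 0.69, and 0.31 without clone 1), and without clone 1 Dusp6 was called in its place. C57BL/6 organoids had 408, 664 and 703 CPM of Dusp6. Against them the log2 fold change of the clones was -0.56 (edgeR adjusted p = 0.390), in the opposite direction. The Notch pathway had no call of 9 tested (median 0.12, and 0.24 without clone 1).

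Of 7 keratins tested, Krt20, a keratin of mature gut and urothelial cells, was higher, from 33.8, 27.0 and 26.9 CPM to 157, 78.4 and 229 CPM, and Krt15 was lower. Without clone 1 Krt20 just missed the threshold (edgeR adjusted p = 0.0504). The keratins Krt7 and Krt8 of simple epithelium differed by less than the spread of the libraries, Krt8 having 972, 1138 and 906 CPM against 784, 885 and 942 CPM. Epithelial junction genes had no call of 43 tested and a median of 0.05. S100a14 was the called gene of 8 S100 genes tested (median 0.47) and Dusp1 that of 25 immediate early and stress genes (median -0.03). Hox genes (6 tested, median 0.62) and imprinted genes (5 tested, median -0.63, and -0.23 over 7 without clone 1) had no call, and no mitochondrially encoded protein-coding gene was matched, so these were not analysed here.

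**Figure D4:**
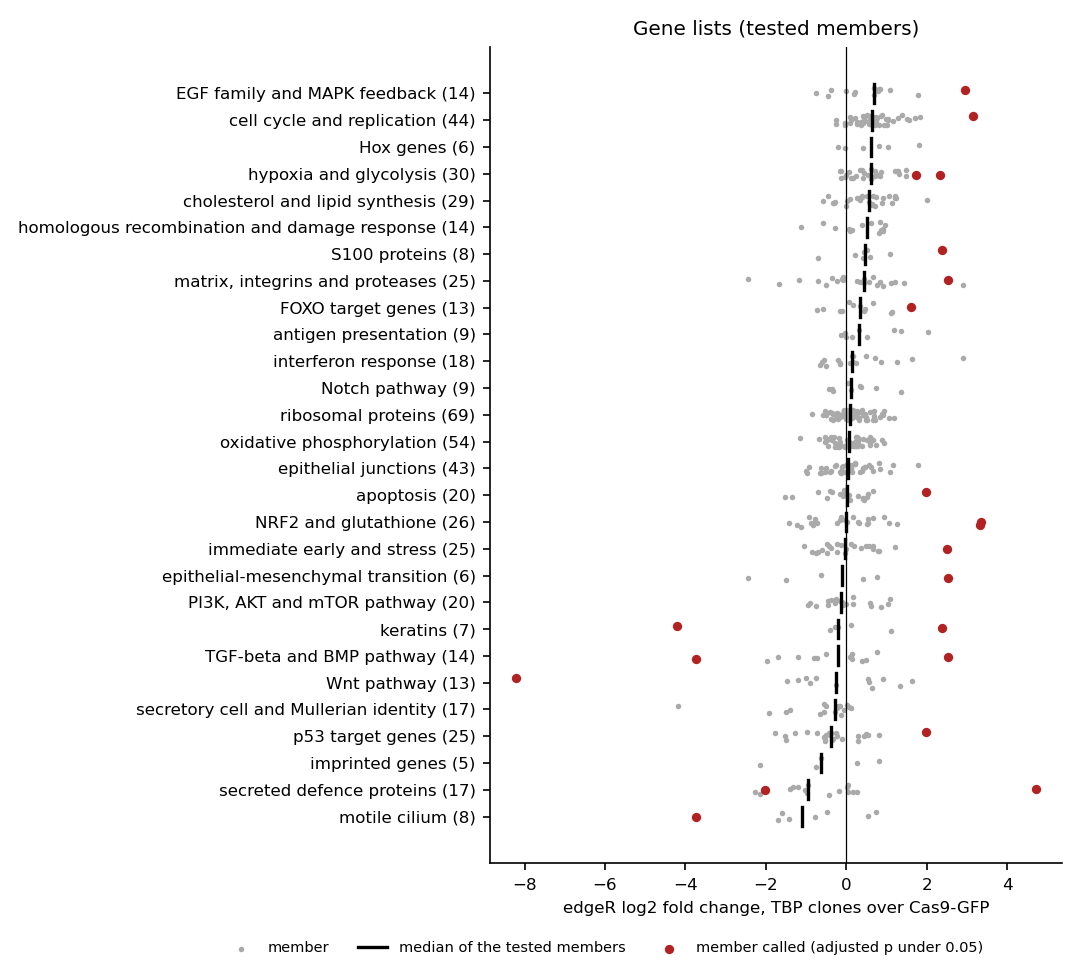
Gene lists, 1 per line with the number of tested members in brackets and the edgeR log2 fold change of TBP clones over Cas9-GFP organoids on the x axis. Gray points are members, red points are members called at an adjusted p under 0.05 and black bars are medians, which run from -1.10 for the motile cilium to 0.69 for the EGF family and MAPK feedback (-0.75 and 0.31 without clone 1).

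More genes differed between clones 2 and 3 than between any pair of controls. Among 1824 genes with at least 100 CPM in clone 2 or 3, 53 were over 4-fold apart between them, 20 higher in clone 3 and 33 higher in clone 2. Between pairs of Cas9-GFP libraries the same measure gave 2 of 1679, 6 of 1667 and 20 of 1729 genes. Each clone is 1 library, so these differences have no replicate check.

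The largest difference was in Zfp503, a transcriptional repressor. It had 180, 243 and 198 CPM in the controls, 133 CPM in clone 1 and 197 CPM in clone 2, but 3 reads (0.647 CPM) in clone 3, a ratio of clone 2 to clone 3 of 305 (95% exact interval 104 to 1485, counting error alone). Fabp5, a fatty acid carrier, was 94.3-fold, Gpx3, a secreted glutathione peroxidase, 79.7-fold, Gpa33, a surface antigen of gut epithelium, 33.9-fold and Ghr, the growth hormone receptor, 26.0-fold higher in clone 2 than in clone 3. Gpa33 was raised in clones 1 and 2, at 1278 and 564 CPM against 65.8, 18.6 and 19.7 CPM in the controls, while clone 3 had 16.6 CPM.

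In the other direction, Ccnd2, the cell cycle driver cyclin D2, had 365 CPM in clone 3 against 5.64 CPM in clone 2 and 5.49, 1.69 and 3.11 CPM in the controls, a ratio of 64.8 between the clones. Lgals7, an epithelial galectin, was 45.5-fold higher in clone 3 than in clone 2. The small heat shock proteins Hspb1 and Hspb8 were 28.7-fold and 26.8-fold higher in clone 3, and Igfbp4, which binds insulin-like growth factors, 18.9-fold. Hspb1 had 240.5, 216 and 168 CPM in the controls, so that it was low in clone 2 (24.6 CPM) and high in clone 3 (707 CPM). Of the genes over 4-fold apart, 8 were above every control in clone 3 and below every control in clone 2, and 16 the reverse.

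Finally, expression was summarised by chromosome, since the study counted chromosomes of such clones in metaphase spreads. Among its edited oviductal organoids it reported abnormal counts for TBP mutants alone, and normal counts for the wild type. For 5468 genes with a mean of at least 20 CPM, the log2 ratio of each library to the mean of the Cas9-GFP libraries (for a control, to the mean of the others) was centred on the median of that library, and the median of each of 20 chromosomes was taken. In the Cas9-GFP libraries these medians lay between -0.10 and 0.06. In clone 2 they lay between -0.09 and 0.10, and none was beyond 0.2 at this minimum.

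In clone 3, 9 of the 20 chromosomes departed by more than 0.2 from the median of the library. Chromosomes 4, 8, 12, 17, 18 and 19 were higher, with medians of 0.42, 0.23, 0.36, 0.30, 0.41 and 0.47. Chromosomes 7, 10 and 13 were lower, with medians of -0.51, -0.38 and -0.30. On chromosome 7, 19.4% of 376 genes were above the median of the library, and on chromosome 19, 75.5% of 204 genes. The departure ran along the whole of most of these chromosomes: split by gene order into a proximal and a distal part, chromosome 19 had medians of 0.47 and 0.47, chromosome 4 of 0.42 and 0.42, chromosome 7 of -0.55 and -0.42 and chromosome 10 of -0.43 and -0.33. Chromosome 13 was an exception, at 0.00 in its proximal and -0.38 in its distal part, and on chromosome 12 the proximal part stood higher (0.50) than the distal (0.21). Parts also differed on some chromosomes within 0.2 as a whole. The X chromosome had -0.41 in its proximal and 0.11 in its distal part, and chromosome 3 had 0.11 and -0.28. All 9 departures kept their sign with genes of at least 50 CPM and, chosen after seeing the data, of at least 200 CPM, where chromosome 8 fell to 0.14. That stricter minimum leaves few genes per chromosome, and with it chromosome 1 of clone 3 moved from -0.06 to -0.43 over 43 genes and chromosome 4 of clone 2 to 0.23 over 23 genes.

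In clone 1, 3 chromosomes were beyond 0.2, chromosomes 3 and 17 with 0.21 and 0.24 and chromosome 16 with -0.25, but at its depth chromosome 16 moved to 0.01 with genes of at least 200 CPM. The C57BL/6 libraries were beyond 0.2 on chromosome 4 alone, by 0.79, 0.78 and 0.81. Chromosome 4 genes were thus lower in the Cas9-GFP organoids and in clone 2 (0.01) than in C57BL/6 organoids, and clone 3 stood between. DNA copy number is not measured by these counts, and no cause of these departures was tested.

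**Figure D5:**
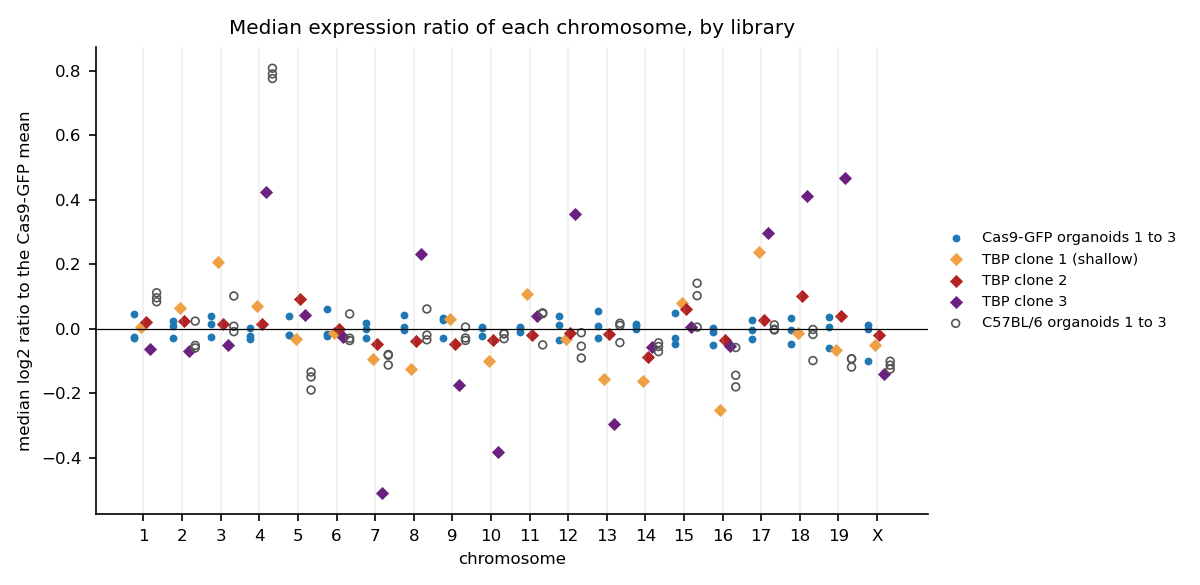
Median centred log2 ratio to the Cas9-GFP mean on the y axis for each chromosome on the x axis. Blue circles are Cas9-GFP libraries, diamonds are the clones and open circles are C57BL/6 organoids: clone 3 ranges from -0.51 on chromosome 7 to 0.47 on chromosome 19, while clone 2 stays between -0.09 and 0.10.

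The calls depended on each of the control libraries. Without Cas9-GFP library 1, 2 or 3, 3 of 62, 5 of 63 and 10 of 63 of the called genes tested stayed past the threshold, although all of them kept their direction and an unadjusted p under 0.05. Without clone 1, 2 or 3, 44, 58 and 40 of the 63 stayed past it.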

How the data were processed

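RNA of organoids was sequenced by CEL-Seq2, which reads the 3′ end of transcripts. Per the labels and the methods of the study, the authors aligned the reads to GRCm38 with BWA, kept uniquely mapped reads on the right strand, and deposited raw read counts per gene that were not corrected for unique molecular identifiers, and ran their own tests with DESeq2 1.18.0. The version of BWA and the annotation are not given in the sources used here. Since reads were counted without molecular identifiers, intervals and floors cover counting error only. Of 27 library columns 18 were not used. The spike-in row (1 count) was left out, leaving 18305 genes.

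Libraries were compared with edgeR 4.0.16 (R 4.3.3; filterByExpr, TMM, quasi-likelihood test, Benjamini-Hochberg adjustment, threshold 0.05) with all clones and without clone 1. CPM were scaled by TMM factors. DESeq2 1.42.0, RLE size factors, no filter, other references, a replicate block and leaving out each library were alternatives, and leaving out each library for the hypoxia response and the minimum of 200 CPM for chromosomes were chosen after seeing the data. Scripts were tested on simulated data. A gene without a read in the clones is given as a bound against 3 counts over the group. Genes named are the targeted genes, list members, the 15 with the largest change per direction among those called both ways (at least 20 CPM in the higher group, groups apart), the 10 most abundant of those called both ways, and 5 per direction with the largest ratio between clones 2 and 3; Prkcdbp, Unc5cl, Pifo and the genes of the X chromosome were singled out after their values were seen. Positions come from RefSeq on GRCm38.p6, matched for 16950 genes by symbol and 1237 by an older symbol, with 118 unmatched. Ratios to the controls used log2(CPM + 1). The comparison and the gene lists were chosen with earlier results of these data known, so no list is independent evidence. A further gene targeted in these clones and some other called genes are not reported by name here.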

Additional observations from a re-analysis of the deposited data

How the results depend on the processing

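Counts of called genes moved with the settings. DESeq2 gave 53 higher genes (48 lower) with all clones and 108 higher and 116 lower without clone 1. Without a filter on low counts there were 196 higher and 176 lower, and 384 and 263 without clone 1. With all 9 oviductal organoid libraries in 1 fit there were 65 and 97, and with C57BL/6 organoids as reference 371 and 580. Leaving out 1 library gave 0 to 77 higher and 3 to 131 lower genes, the low ends without a Cas9-GFP library (0 and 3, 0 and 5, 0 and 11) and the high ends without clone 2 (without clone 3, 46 and 37). For clones 2 and 3, leaving out a Cas9-GFP library gave 0 to 1 higher and 0 to 3 lower genes. RLE size factors kept these counts within 1.5 times. A further minimum of 1 for the log2 fold change could remove no gene, since every called gene lay beyond it. The columns share numbers from 1 to 3, but deviations of same-numbered libraries correlated at 0.064, 0.138 and 0.061, so the numbers were not taken as pairs, although each matched its own number best. A replicate block gave 45 higher and 50 lower genes.

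Against C57BL/6 organoids the direction turned for Cdkn2a (-1.41), Dusp1 (-1.70), Kdelr3 (-0.67), Nupr1 (-1.37), Wfdc18 (-3.99), Ifitm1 (0.13) and Unc5cl (1.08, all log2 fold changes). The cause was not tested. The depth of clone 1 limits every statement on low genes in it, and 2 or 3 libraries a group limit all calls.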
